A study of Homo sapiens with 4 samples.

Results

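The galectin family was examined in human embryonic stem cells (hESCs) of the naïve and the primed state. The members were 10 named genes, LGALS1, LGALS3, LGALS4, LGALS8, LGALS9, LGALS12, LGALS13, LGALS14, LGALS16 and CLC, among 62218 annotated genes in the count files. They were chosen by name, with the earlier result that LGALS16 was high in the naïve cells already known. Each gene was represented by its isoform with the largest mean count over the 4 libraries, so that mean also entered the choice. The libraries were Nanopore cDNA of total RNA from wild-type H1, an established hESC line. There were 2 libraries of naïve hESCs and 2 of primed hESCs. The naïve cells were derived from H1 primed cells and grown at low oxygen in FINE, a medium with dasatinib, AZD5438, SB590885, PD0325901, Y-27632, LIF, Activin A and bFGF. The primed cells were grown in mTeSR. The labels also give a lower confluency for the naïve cells than for the primed cells. Medium, oxygen and confluency changed with the state, so the state cannot be told apart from its culture. Nothing in the labels says that the libraries of a state came from separate cultures, so p-values measure the spread between these libraries only, which may be technical.

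Galectins are proteins that bind sugars ending in galactose through a conserved carbohydrate recognition domain. They are made in the cytosol, leave the cell without a signal peptide, and cross-link glycoproteins at the cell surface or mark damaged endosomes and lysosomes from inside. LGALS1, LGALS3, LGALS8 and LGALS9 are expressed in many tissues. LGALS13, LGALS14 and LGALS16 lie in a primate gene cluster on chromosome 19 and are known from the placenta, chiefly the syncytiotrophoblast. CLC lies in the same cluster and encodes the protein of Charcot-Leyden crystals in eosinophils. LGALS4 is known from gut epithelium and LGALS12 from adipocytes and myeloid cells. By structure, LGALS1, CLC and the placental members carry a single recognition domain, LGALS3 joins its domain to a repetitive tail, and LGALS4, LGALS8, LGALS9 and LGALS12 carry a pair of domains.

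The 4 cluster members share similar promoters, which are printed here because their genes stood at very different levels in the libraries. The RefSeq sequences (GRCh38.p14) of the 250 bases before each start lie at chr19:39655663-39655912 on the + strand for LGALS16, chr19:39602274-39602523 on the + strand for LGALS13, chr19:39704231-39704480 on the + strand for LGALS14 and chr19:39738030-39738279 on the - strand for CLC. Capitals mark the 6 bases that align to the TEAD-type motif GGAATG of LGALS16.

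LGALS16: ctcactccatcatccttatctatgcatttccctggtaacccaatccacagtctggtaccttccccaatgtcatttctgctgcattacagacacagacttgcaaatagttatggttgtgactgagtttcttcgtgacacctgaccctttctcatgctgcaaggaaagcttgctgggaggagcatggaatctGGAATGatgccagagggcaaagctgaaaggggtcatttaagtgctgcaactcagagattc

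LGALS13: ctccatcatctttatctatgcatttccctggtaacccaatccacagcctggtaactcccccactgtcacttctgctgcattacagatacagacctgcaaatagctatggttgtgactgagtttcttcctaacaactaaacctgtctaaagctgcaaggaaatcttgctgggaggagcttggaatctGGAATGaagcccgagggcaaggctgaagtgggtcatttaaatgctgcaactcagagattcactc

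LGALS14: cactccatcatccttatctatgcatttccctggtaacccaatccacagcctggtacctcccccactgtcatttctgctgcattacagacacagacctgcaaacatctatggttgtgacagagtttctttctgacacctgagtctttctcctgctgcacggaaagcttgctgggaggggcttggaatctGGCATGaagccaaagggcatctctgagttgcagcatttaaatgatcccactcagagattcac

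CLC: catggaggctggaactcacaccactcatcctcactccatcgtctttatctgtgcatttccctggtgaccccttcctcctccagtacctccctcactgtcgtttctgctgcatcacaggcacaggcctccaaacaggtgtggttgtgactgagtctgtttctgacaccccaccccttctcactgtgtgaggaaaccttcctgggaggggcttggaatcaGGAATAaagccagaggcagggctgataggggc

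Over these bases LGALS16 was 87.0% identical to LGALS13, 85.7% to LGALS14 and 63.9% to CLC. The motif GGAATG was found once, on either strand, in LGALS16 and once in LGALS13, and 11.9% of 34943 promoter windows of the same length held it. Counted from the first base of the motif, the aligned bases of LGALS14 differed by A3C and those of CLC by G6A. The GATA-type motif AGATAA was found in all 4 windows, against 9.19% of all promoters. The AP-2-type motif GCCNNNGGC was found in CLC alone of the 4, against 19.7% of all promoters. TATAAA, ATGCAAAT and GGGCGG were found in none of the 4 windows, and 10.8%, 1.63% and 42.5% of all promoters held them. Each motif was searched on both strands, no match overlapped that of another motif, and a match describes letters only. Windows this similar are not independent, so a match that several of them share is not several observations. Of the 10 members, 8 had a promoter in the RefSeq table.

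The libraries held 129276054 to 161548901 counts over all transcripts, and a count of 0 in a primed library allows up to 3 counts, or 0.0977 to 0.102 CPM, the count scaled by library size times its TMM (trimmed mean of M values) factor. Such limits cover counting error only. All 8 naïve markers were lower in the primed cells and all 7 primed markers were higher, against 32.6% and 37.4% of all genes tested. The naïve marker KLF17 differed little, with 2200 and 2423 naïve counts and 2083 and 2236 primed counts, and its log2 fold change of -0.41 turned to 0.23 (adjusted p = 0.114, edgeR) when library size alone was the scaling. Of 4 pluripotency genes that both states express, SOX2 (log2 fold change 2.38) and LIN28A (2.11) were higher in the primed cells, NANOG (-1.62) was lower, and POU5F1 (-0.05, adjusted p = 0.771, edgeR) did not pass the test. Of 11 trophoblast markers, 10 were lower in the primed cells, against 32.6% of all genes, and 1, KRT7, did not pass the test. With library size HLA-G no longer passed (log2 fold change -0.21, adjusted p = 0.459, edgeR). KRT7 was then higher in the primed cells, at 1.00 (adjusted p = 0.00263, edgeR). The summed level of the 11 markers was 2145 to 2487 CPM in the naïve libraries and 7.17 to 8.08 CPM in the primed libraries. CGA, the alpha subunit of chorionic gonadotropin, held 35747 and 47550 naïve counts and 0 and 1 primed counts. Their part in the galectin results below was not tested, and in bulk libraries fewer cells of a type and less RNA per cell cannot be told apart.

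LGALS16, LGALS13, LGALS1 and LGALS3 were lower in the primed cells and CLC was higher. Summed over the 10 members, the level was 218 and 215 CPM in naïve libraries but 45.0 and 42.7 CPM in primed libraries. The 4 broadly expressed members held 59.5% and 52.6% of that sum in naïve libraries but 84.2% and 85.2% in primed libraries. Their share rose although their summed level fell, from 130 and 113 CPM to 37.9 and 36.4 CPM. LGALS13, LGALS14 and LGALS16 together held 40.3% and 47.0% of the 10-member sum in the naïve cells and 2.11% and 1.60% in the primed cells. Nearly all of that naïve share was LGALS16 alone, at 39.1% and 45.6%, which was known beforehand to be high there. CLC went the other way, from 0.0795% and 0.109% to 11.2% and 10.4%. These shares are taken within a library and do not depend on the scaling between libraries.

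**Figure D1:**
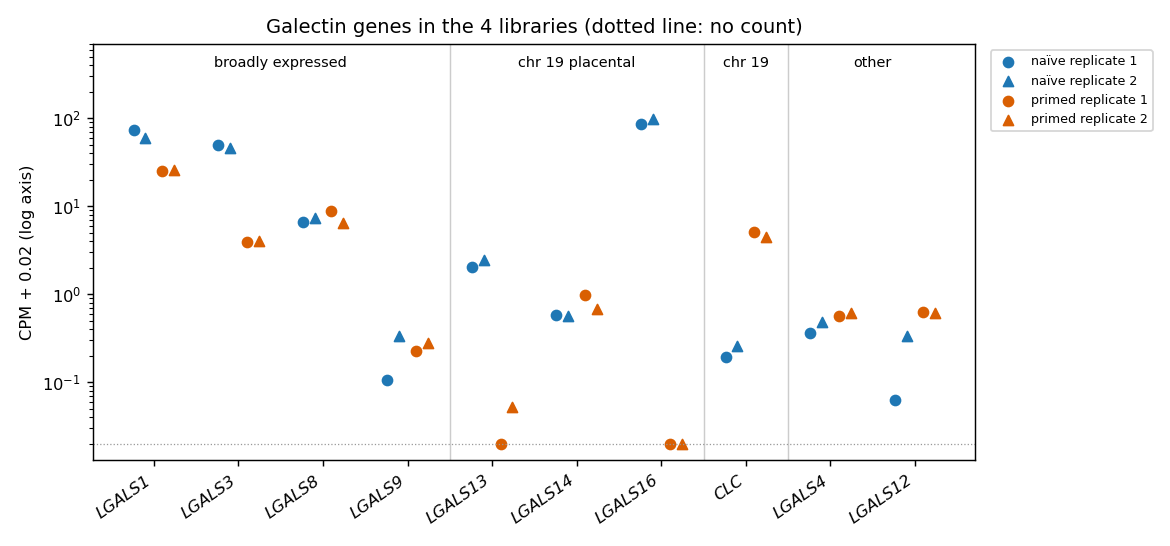
CPM plus 0.02 of each galectin gene on a log axis, with circles for replicate 1 and triangles for replicate 2 of the naïve (blue) and primed (orange) cells. LGALS16 lies at 85.2 and 98.0 CPM in the naïve libraries and on the dotted line of no count in both primed libraries, whereas CLC goes from 0.173 and 0.235 CPM in naïve to 5.02 and 4.46 CPM in primed libraries.

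LGALS16 was tested in the fit but its change is given as a description, since it was known when the family was chosen. Among the other 9 members, 8 had at least 10 counts in at least 2 libraries and entered the quasi-likelihood test of edgeR, with p-values adjusted over all genes by the Benjamini-Hochberg method. At an adjusted p under 0.05, 2 of the 8 were higher in the primed cells, CLC and LGALS12, and 3 were lower, LGALS1, LGALS3 and LGALS13. The other 3, LGALS4, LGALS8 and LGALS14, did not pass. LGALS13, LGALS12 and CLC reached 10 counts only in libraries of the state where they were higher. They could enter the test only through that state, so their calls are not independent of the filter. Over all 27633 genes tested, 37.4% were higher and 32.6% lower in the primed cells, so a call in either direction was common among genes in general. With library size alone in place of TMM scaling, 15525 genes were higher and 4512 lower in place of 10328 and 9009, and the members split into 5 higher and 3 lower. All genes together had a median log2 fold change of 0.08 with TMM and 0.72 with library size, so a value from library size is to be read against that shift. The median of the 8 tested members was 0.30 with TMM.

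In the placental cluster, LGALS16 was the most abundant galectin of the naïve cells and was not detected in the primed cells. LGALS16 (ENSG00000249861, chr19:39655913-39660647, + strand, 4 exons) held 1967 and 2502 counts in naïve libraries and 0 in each primed library. Its naïve level was 91.6 ± 9.04 CPM (SD, n = 2), which makes it at least 918-fold lower in the primed cells when the mean limit of 3 counts per primed library is taken as their level. With library size as the scaling that bound was 591-fold.

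LGALS13, which encodes a galectin secreted by the placenta, showed the same direction at a far lower level. It held 47 and 62 naïve counts and 0 and 1 primed counts (ENSG00000105198, chr19:39602524-39607474, + strand). The summed counts gave a naïve over primed ratio of 135, with an exact 95% Clopper-Pearson interval of 23.7 to 5374 for counting error, and an adjusted p of 9.11e-13 in edgeR. Without primed replicate 1 the ratio was 68.8 (interval 12.1 to 2743). Without primed replicate 2, which held the only primed count, LGALS13 was at least 21.9-fold lower in the primed cells, taking 3 counts in the remaining library as the limit. The LGALS13 count was 2.39% and 2.48% of the LGALS16 count in the naïve libraries. The transcripts of these genes were 88.0% identical over a local alignment, and the deposited counts include alignments to several places, so an alignment may count for both genes. How many do was not tested.

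LGALS14 lies in the same cluster, and its transcript was 84.1% identical to that of LGALS16. It held 13 and 14 naïve counts and 28 and 20 primed counts (ENSG00000006659, chr19:39704481-39709444, + strand). Its level was 0.556 ± 0.0105 CPM in the naïve and 0.801 ± 0.211 CPM in the primed cells (SD, n = 2 each). The groups did not overlap, but the log2 fold change of 0.52 (SE 0.41) did not pass the test (adjusted p = 0.251, edgeR). It passed with library size as the scaling, at 1.15 (adjusted p = 0.0127, edgeR).

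CLC was high in the state in which LGALS16 was not detected. It held 4 and 6 naïve counts and 148 and 137 primed counts (ENSG00000105205, chr19:39731255-39738029, - strand). CLC rose 22.6-fold in the primed cells, a log2 fold change of 4.50 (SE 0.37, adjusted p = 1.53e-14, edgeR), and the groups did not overlap. The ratio of CLC to LGALS14 counts within a library went from 0.308 and 0.429 in naïve to 5.29 and 6.85 in primed cells, so these neighbors moved unequally whatever the scaling. Of 6 markers of eosinophils and basophils, RNASE2 and RNASE3 had no count in any library. EPX, eosinophil peroxidase, had 0 and 0 naïve counts and 15 and 22 primed counts. The list summed to 27.5 to 31.3 CPM in the naïve and 27.8 to 28.1 CPM in the primed libraries, nearly all of it from CCR3 (27.1 to 31.2 CPM), which did not pass the test.

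The cluster from LGALS13 to CLC spanned 136 kb and held 14 annotated genes, 4 of them with counts in both naïve libraries and none in the primed libraries. Besides LGALS16, the strongest of these was the long non-coding RNA ENSG00000290598 (chr19:39638685-39642401, + strand), between LGALS13 and LGALS16, with 471 and 630 naïve counts. It was at least 226-fold lower in the primed cells (adjusted p = 1.73e-25, edgeR). Inside its span lies ENSG00000268153, a transcribed unprocessed pseudogene with 468 and 624 naïve counts, so these are largely the same alignments. Its transcript was 74.0% identical to that of LGALS16 over a local alignment of 384 columns. ENSG00000290598 held 23.9% and 25.2% of the LGALS16 count in the naïve libraries. The fourth, the pseudogene ENSG00000278813, had 4 and 3 counts in the naïve libraries, near the limit of 3 counts. The LGALS16 pattern was known beforehand. The share of all genes with counts in naïve libraries only was not computed, so 4 of 14 is not read as a trait of the cluster.

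Between LGALS16 and LGALS14 the levels were low in both states. LGALS17A, annotated as a long non-coding RNA, held 11 and 10 naïve counts and 7 and 1 primed counts, a log2 fold change of -1.67 (SE 0.60, adjusted p = 0.0135, edgeR). It overlaps the pseudogene ENSG00000226025, with 9 and 7 against 6 and 0 counts. ENSG00000269460 and ENSG00000268088 held 3 to 6 counts in every library and were not tested. The pseudogenes RPS29P27, in this stretch, and ENSG00000269519 and RPS29P30, between LGALS13 and LGALS16, held 1 count or none in any library.

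**Figure D2:**
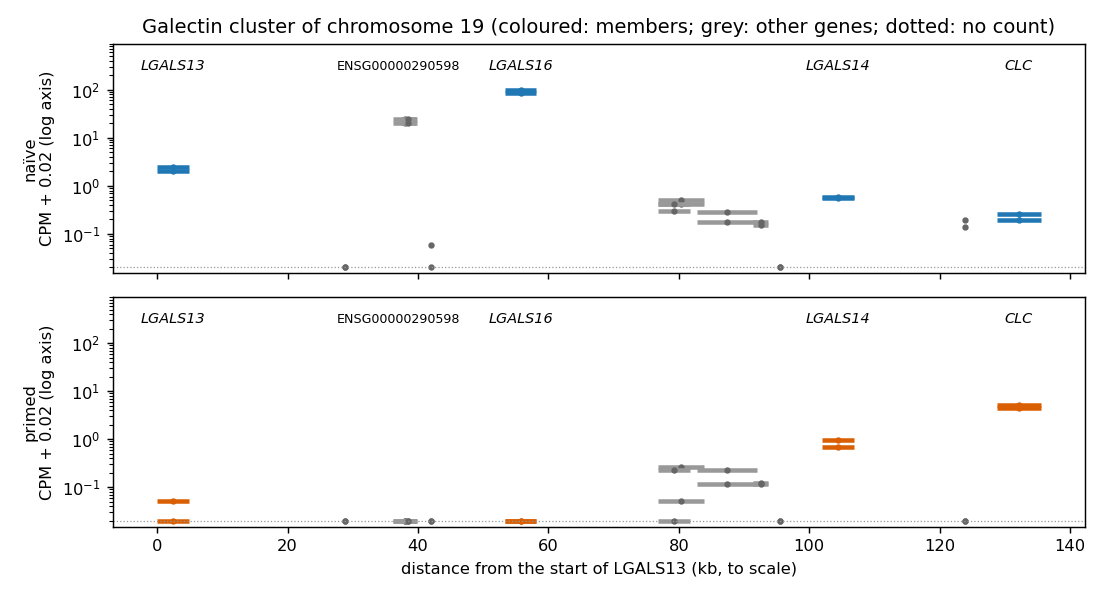
CPM plus 0.02 on a log axis of the genes from LGALS13 to CLC against the distance from the start of LGALS13 in kb, with a line over the span of each gene for each library, naïve above and primed below. The naïve panel peaks at LGALS16 and ENSG00000290598 and the primed panel at CLC (5.02 and 4.46 CPM), with LGALS14 at similar heights in both.

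The 5 genes with the pattern most like that of LGALS16 were MEG3, ENSG00000275266, MIR493HG, XAGE2 and MIR675. Likeness was the Euclidean distance of log2(CPM + 0.1) over the 4 libraries among all genes tested, and it ranged from 0.356 for MEG3 to 1.02 for MIR675. MEG3, an imprinted long non-coding RNA of chromosome 14, held 1804 and 1985 naïve counts and no primed count. XAGE2, a cancer/testis antigen gene of the X chromosome, held 3180 and 3426 against 0 and 0. None of the 5 lies on chromosome 19, and 4 libraries are few points for such a measure. MEG3 and MIR493HG both lie on chromosome 14, and ENSG00000275266 and MIR675 both on chromosome 11. The 5 may therefore not be 5 separate loci, and whether they share alignments was not tested.

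LGALS3 had the largest change of the 3 broadly expressed members tested. LGALS3, the chimeric galectin found in the cytosol, nucleus and outside the cell, held 1136 and 1160 naïve counts and 114 and 122 primed counts (ENSG00000131981, chr14:55129252-55145423, + strand). It was 12.1-fold lower in the primed cells, with a log2 fold change of -3.59 (SE 0.17, adjusted p = 2.67e-22, edgeR), and the groups did not overlap. Library size as the scaling gave -2.95.

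LGALS1, a secreted galectin that cross-links surface glycoproteins as a dimer, was also lower in the primed cells. It held 1703 and 1531 naïve counts and 733 and 790 primed counts (ENSG00000100097, chr22:37675636-37679802, + strand). The log2 fold change was -1.40 (SE 0.15, adjusted p = 5.6e-11, edgeR), or 2.64-fold, and with library size it was -0.76. The ratio of LGALS1 to LGALS3 counts within a library went from 1.50 and 1.32 in naïve to 6.43 and 6.47 in primed cells. Fibroblasts are rich in LGALS1. Of 5 fibroblast markers 3 were tested, COL1A1, COL1A2 and POSTN, and all 3 were higher in the primed cells, against 37.4% of all genes. That list summed to 1.92 to 2.12 CPM in the naïve and 56.7 to 58.6 CPM in the primed libraries, mostly COL1A1 and COL1A2, with DCN at 1 count or none in every library.

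**Figure D3:**
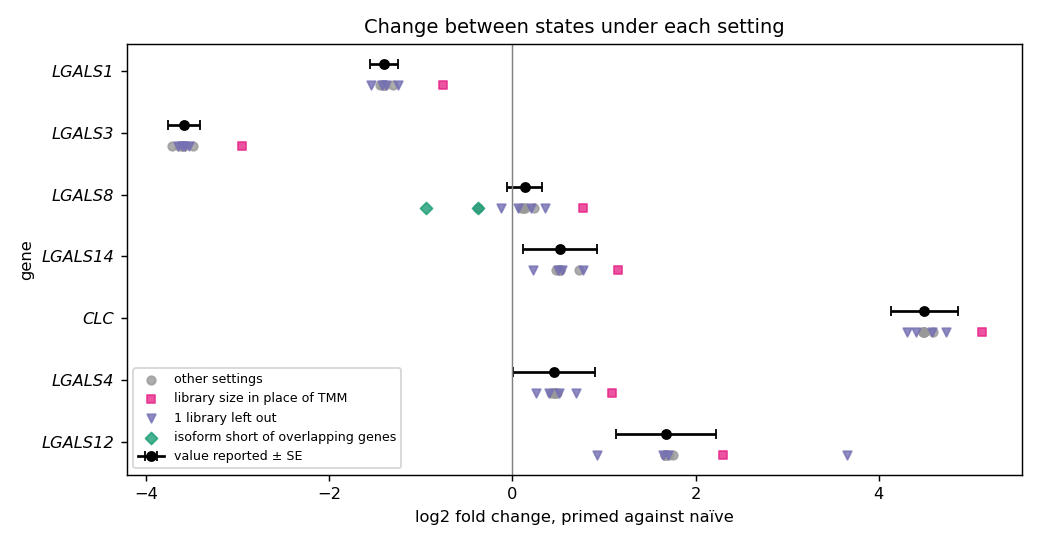
Log2 fold change of primed against naïve cells for 7 tested members, with the value reported and its standard error in black and the value under every other setting below it. LGALS1 and LGALS3 stay left of 0 and LGALS14, CLC, LGALS4 and LGALS12 right of it, whereas LGALS8 lies on both sides.

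LGALS8 showed no stable direction. LGALS8, a tandem-repeat galectin that detects damaged endosomes and lysosomes, held 153 and 187 naïve counts and 263 and 197 primed counts on LGALS8-219, the isoform taken for the gene (ENSG00000116977, chr1:236518273-236552981, + strand). The groups overlapped in CPM, with 6.63 and 7.32 for naïve, 8.93 and 6.42 for primed libraries, and the log2 fold change was 0.14 (SE 0.19, adjusted p = 0.538, edgeR). It was -0.12 without primed replicate 1, -0.38 when the 28 isoforms were summed, and 0.77 with library size (adjusted p = 0.00157, edgeR).

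Genes on the opposite strand overlap LGALS8, and the counts ignore strand and include introns. HEATR1, a gene of ribosome production, reaches into its 3' end and held 306 and 399 naïve counts and 471 and 433 primed counts. The long non-coding RNA ENSG00000230325 lies further inside, with 70 and 91 against 109 and 82 counts. The stretch chr1:236549264-236552974, which LGALS8-208 covers and LGALS8-203 does not, is inside HEATR1. The difference between the counts of those isoforms was 65 and 82 naïve counts and 158 and 108 primed counts, which is 43.0% and 44.3% of LGALS8-208 for naïve libraries, 60.1% and 55.7% for primed ones. Reads of LGALS8 and of HEATR1 cannot be told apart in it.

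An isoform of LGALS8 that stops short of HEATR1 gave another value, in alternatives chosen after the data were seen. LGALS8-202 held 83 and 100 naïve counts and 94 and 80 primed counts, a log2 fold change of -0.38 (SE 0.24, adjusted p = 0.151, edgeR). LGALS8-215, which also stops short of ENSG00000230325, held 71 and 85 against 42 and 58 counts, a log2 fold change of -0.95 (SE 0.26, adjusted p = 0.00157, edgeR). LGALS8-AS1, antisense to the 5' part, lies within LGALS8-215 and held 45 and 59 against 29 and 39 counts, and ENSG00000273058 held at most 2 counts in any library. Over the 28 isoforms the log2 ratio of mean CPM was -0.97 to -0.93 in the 4 that end before both overlapping genes, -0.83 to -0.35 in the 19 that reach ENSG00000230325 alone, and -0.29 to 0.15 in the 5 that reach HEATR1. These isoforms share most of their alignments.

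**Figure D4:**
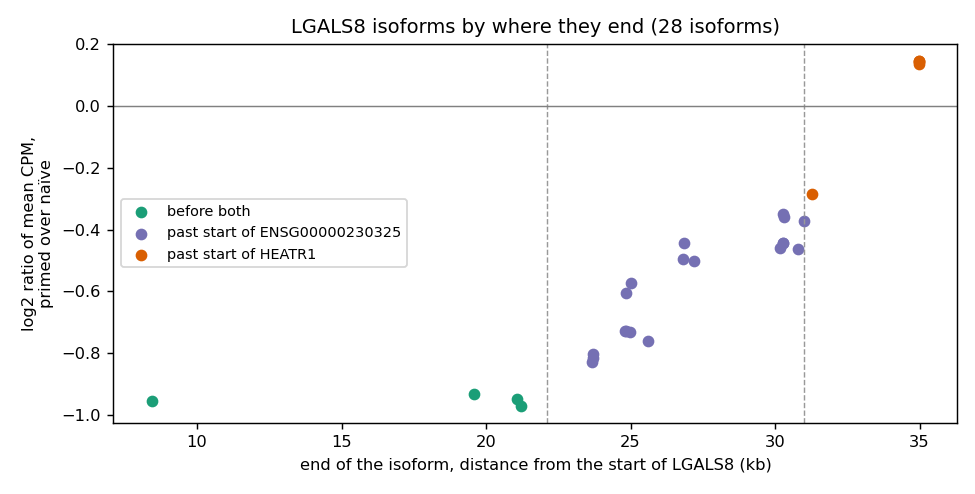
Log2 ratio of mean CPM, primed over naïve, of each of the 28 LGALS8 isoforms against where the isoform ends, in kb from the start of the gene, with dashed lines at the starts of ENSG00000230325 and HEATR1. The ratio is at -0.97 to -0.93 for isoforms that end before both lines and above 0 only for the 4 that reach the far end of the gene.

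LGALS9, the other broadly expressed tandem-repeat member and a ligand of HAVCR2, was near the limit of detection. It held 2 and 8 naïve counts and 6 and 8 primed counts (ENSG00000168961, chr17:27629798-27649560, + strand) and did not enter the test. A difference between the states was not detectable at this depth. The protein-coding gene ENSG00000266728 overlaps it on the same strand, with 81 and 121 naïve counts and 38 and 62 primed counts.

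LGALS12 and LGALS4 were low in both states. LGALS12, a galectin of lipid droplets in adipocytes, held 1 and 8 counts in the naïve and 18 in each primed library (ENSG00000133317, chr11:63506084-63516772, + strand). Its log2 fold change of 1.67 (SE 0.55, adjusted p = 0.0065, edgeR) rested on few counts. Without naïve replicate 1 it was 0.92 (adjusted p = 0.152, edgeR), without naïve replicate 2 it was 3.65, and DESeq2 gave 1.68 (adjusted p = 0.121). Of 4 adipocyte markers 1 was tested and it did not pass. The list summed to 0.627 to 0.736 CPM in the naïve and 0.713 to 0.945 CPM in the primed libraries.

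LGALS4, which binds sulfated glycolipids on gut epithelium, held 8 and 12 naïve counts and 16 and 18 primed counts (ENSG00000171747, chr19:38801674-38812945, - strand, outside the cluster). The groups did not overlap, and the log2 fold change of 0.46 (SE 0.45, adjusted p = 0.366, edgeR) did not pass. With library size it was 1.09 (adjusted p = 0.0291, edgeR). Of 4 gut epithelium markers 2 were tested, of which VIL1 was higher in the primed cells and CDH17 did not pass, CDX2 held 2 to 4 counts in every library, and the list summed to 1.78 to 2.43 CPM in the naïve and 3.65 to 4.11 CPM in the primed libraries.

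Levels of different genes were compared as CPM per kb of exonic length. The counts cover whole spans with introns, so the order depends on the isoform taken and on its length. Without that division LGALS8, taken on 6420 exonic bases, stood above LGALS13 in the naïve cells, at 6.98 against 2.23 CPM. In the naïve cells LGALS16 was first at 151 ± 14.9 CPM per kb (SD, n = 2), followed by LGALS1 at 127 ± 18.5 and LGALS3 at 49.4 ± 2.79. The lower LGALS16 library, at 141 CPM per kb, lay just above the higher LGALS1 library, at 140 CPM per kb. LGALS13 came next at 3.72 ± 0.462, then LGALS8, LGALS14, LGALS4, CLC, LGALS12 and LGALS9. LGALS4 overlapped CLC, and LGALS12 overlapped LGALS9.

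In the primed cells LGALS1 was first at 47.9 ± 1.15 CPM per kb, followed by CLC at 7.52 ± 0.627 and LGALS3 at 4.09 ± 0.078. LGALS14 at 1.34 ± 0.353 and LGALS8 at 1.20 ± 0.276 overlapped. LGALS4, LGALS12, LGALS9, LGALS13 and LGALS16 followed, with LGALS13 and LGALS16 at or below the limit of 3 counts. By this measure CLC was eighth among the galectins of the naïve cells and second in the primed cells. In CPM without the length division, LGALS8 stood above CLC in the primed cells, at 7.67 against 4.74. The LGALS8 value is from an isoform that reaches into HEATR1.

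Usage of isoforms within a gene was tested with edgeR's diffSpliceDGE, and a call asked for an adjusted p below 0.05 together with a change in isoform fraction (dIF) beyond 0.1. None of the 62 member isoforms tested, from 8 genes, was called, against 0.545% of 159577 isoforms over all genes. At an unadjusted p under 0.05 there were 8, all of them LGALS8 isoforms. Of the 62, the 5 isoforms of LGALS13 and LGALS16 were out of reach of a call, since a primed library without counts of the gene leaves no fraction to compare. The smallest adjusted p of a member isoform was 0.172 in edgeR. The largest dIF was 0.0737, for LGALS14-201. LGALS16-201 and LGALS16-202 held the same count in every library. Whole spans were counted, so isoforms of a gene share most of their counts and shifts between them would be diluted. LGALS8-208 and LGALS8-212, with the smallest adjusted p, had a dIF of only 0.0077 and 0.0075. The absence of calls therefore says little about isoform usage in these genes.

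The 11 other galectin genes and relatives were mostly low. Among the 7 tested, 2 were higher in the primed cells, LGALS2 and LGALSL-DT, and 5 were lower, against 37.4% and 32.6% of all genes. LGALS7 held 35 and 49 naïve counts and 20 and 22 primed counts, and LGALS7B 35 and 49 against 21 and 22, so these near-identical copies share their alignments. LGALSL, a galectin-like gene, held 183 and 194 against 162 and 123 counts, whereas the divergent transcript LGALSL-DT held 2 and 7 against 61 and 51. LGALS2 had 0 and 6 naïve counts and 14 and 10 primed counts. Both LGALS2 and LGALSL-DT reached 10 counts in primed libraries alone, so they entered the test only through that state.

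Galectins read the glycans that other enzymes build, so 3 lists of genes that act with them were described. Of 25 tested glycan enzymes, 7 were higher and 12 (48.0%) lower in the primed cells, against 37.4% and 32.6% of all genes, and their median log2 fold change was -0.43 against 0.08. With library size the split was 10 higher and 8 lower, against 15525 and 4512 of the 27633 genes tested. ST3GAL3, a sialyltransferase, and B4GALT6, which makes lactosylceramide, had log2 fold changes of 3.13 (SE 0.26) and 3.11 (SE 0.27). MGAT5, which adds the N-glycan branch that galectin-3 binds well, held 73 and 88 naïve counts and 341 and 471 primed counts, a log2 fold change of 2.02 (SE 0.20, adjusted p = 3.44e-12, edgeR). MGAT4A, another branching enzyme, held 330 and 426 against 48 and 62 counts, a log2 fold change of -3.08 (SE 0.21). ST3GAL1, which caps O-glycans, stood at -2.84 (SE 0.21), and B4GALT1, which adds galactose to N-glycans, at -2.25 (SE 0.17).

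Of 21 tested glycoprotein partners, 5 were higher and 11 (52.4%) lower in the primed cells, against 37.4% and 32.6% of all genes, with a median of -0.43 on the log2 scale. With library size the split was 9 higher and 6 lower, against 15525 and 4512 of the 27633 genes tested. ALCAM, an adhesion molecule, held 5 and 9 naïve counts and 341 and 391 primed counts, a log2 fold change of 5.38 (SE 0.29, adjusted p = 2.28e-20, edgeR). ITGA6, a subunit of laminin receptors, had a log2 fold change of 1.93 (SE 0.18). LGALS3BP, the secreted galectin-3 binding protein, held 64 and 48 against 244 and 258 counts, a log2 fold change of 1.85 (SE 0.22), while LGALS3 itself had one of -3.59. CD47, a surface inhibitor of phagocytosis, held 862 and 1338 against 145 and 133 counts, a log2 fold change of -3.28 (SE 0.18). NRP1, a semaphorin and VEGF co-receptor, stood at -2.72 (SE 0.19) and LAMP2, a lysosomal membrane glycoprotein, at -1.85 (SE 0.15).

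Of 8 genes that respond with galectins to damaged membranes, 1 was higher and 5 (62.5%) lower in the primed cells, against 37.4% and 32.6% of all genes, with a median log2 fold change of -0.59. With library size the split was 2 higher and 2 lower, against 15525 and 4512 of the 27633 genes tested. The one that rose was TRIM16, a ubiquitin ligase that acts with galectin-3, with a log2 fold change of 0.87 (SE 0.19, adjusted p = 6.5e-05, edgeR). CHMP4A and CHMP4B, subunits of the ESCRT-III membrane repair machinery, stood at -1.22 (SE 0.16) and -1.18 (SE 0.22), and the kinase MTOR at -0.72 (SE 0.15).

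**Figure D5:**
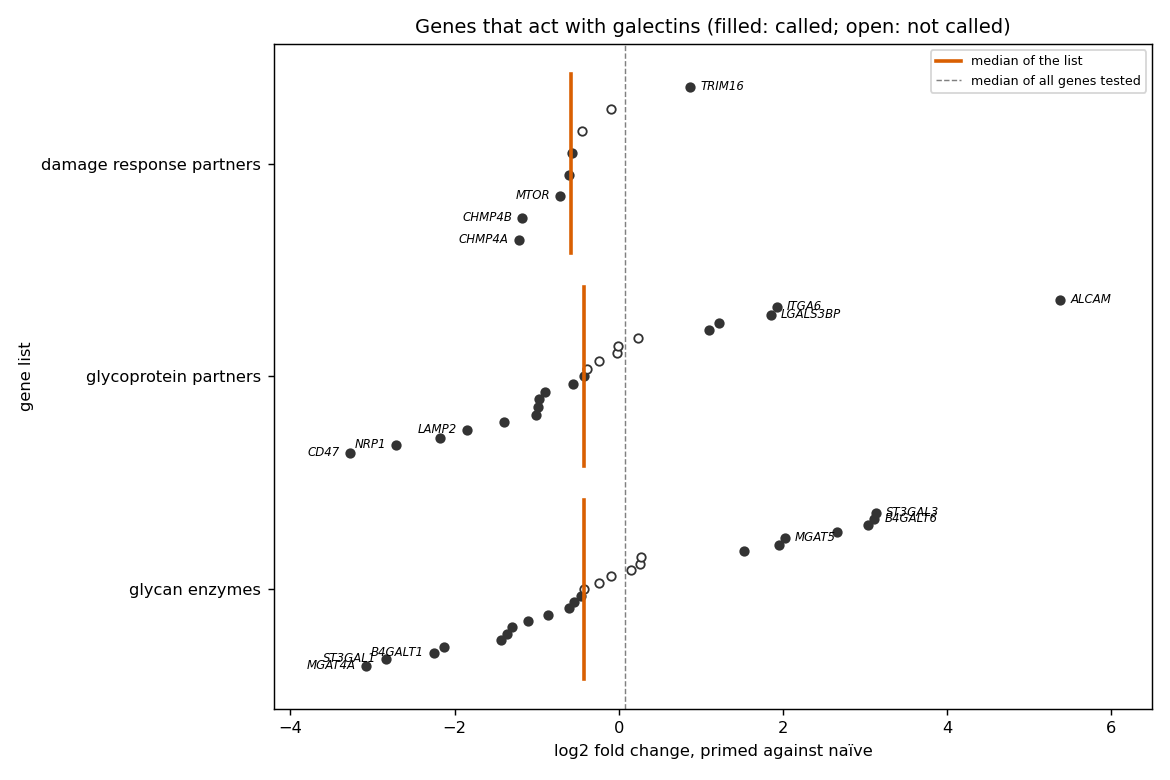
Log2 fold change of primed against naïve cells for the tested genes of the 3 lists, filled where called and open where not, with the median of each list in orange and the median of all genes tested as a dashed line. Each list has called genes on both sides of 0 and a median left of the median of all genes, at -0.43, -0.43 and -0.59.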

How the data were processed

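Nanopore cDNA libraries of naïve and primed H1 hESCs were compared, as 2 replicates of each. Reads were aligned to GRCh38 with minimap2 by the authors, who deposited raw counts per transcript from featureCounts 2.0.0 on Ensembl release 105. Per the file headers, these counts ignore strand, cover whole transcript spans, and count an alignment for each transcript it overlaps and each place it aligns. Of 244825 transcripts, 242542 matched GENCODE release 44 by identifier, 97.9% of these with the same span. The other 2283, with 1.0% of the counts, were not used.

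Genes that reached 10 counts in 2 or more libraries were fitted with edgeR 4.0.16 in R 4.3.3, with TMM scaling, the state as the term, two-sided tests and adjustment over all genes. CPM values use the same scaling. The SE of a log2 fold change is its size divided by the square root of F. Isoform usage was tested with diffSpliceDGE. Alternatives were DESeq2 1.42.0, library size, other count filters, a sum over isoforms, the canonical isoform, a log2 fold change beyond 1, a replicate block, isoform counts collapsed or not divided by length, and each library left out, keeping the genes tested. A lone library is then assumed to vary like the other state. The fits were tested on simulated data. Local alignments were made in Biopython 1.88 with match 1, mismatch -1, gap opening -2 and extension -0.5. Figures were drawn with matplotlib 3.10.9.

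The members and lists were chosen with earlier results of these data known. The text names all members, the genes inside the cluster or across a member, the 5 genes most like LGALS16, and from each list the 3 largest changes per direction among called genes whose mean count reached 50. LGALS8-202, LGALS8-203, LGALS8-208 and LGALS8-215 were chosen after the data were seen, as were the marker and other galectin genes named.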

Additional observations from a re-analysis of the deposited data

How the results depend on the processing

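LGALS1, LGALS3, LGALS13, CLC, LGALS14, LGALS4 and LGALS12 kept their direction under every alternative in which they were tested. LGALS8 reversed to -0.38 (log2 fold change) on the sum over isoforms, and, in alternatives chosen after seeing the data, to -0.38 on the isoform short of HEATR1 and -0.95 on that short of ENSG00000230325 too. With each library left out it ranged from -0.12 to 0.35. The cause was not tested. The 3 members lower in primed cells became 2 with at least 50 counts, a filter that LGALS13 and LGALS12 miss, and 4 on the shorter of those LGALS8 isoforms. The 2 higher became 1 with DESeq2, 1 with at least 50 counts, 5 with library size, and 1 to 2 with a library left out, the 1 without naïve replicate 1. For LGALS16 the bound of 918-fold ranged from 854 to 982 with a library left out. Library size gave 15525 genes higher and 4512 lower, 9 glycoprotein partners higher and 6 lower, and 2 damage response genes higher and 2 lower. A log2 fold change beyond 1 left 5120 genes lower, 6 glycoprotein partners lower, and 0 damage response genes higher and 2 lower. No member isoform was called under any alternative, with 0 to 8 at an unadjusted p under 0.05 in edgeR. Isoforms called over all genes were 869, 560 with at least 50 counts, 290 at a dIF beyond 0.2, and 486 to 554 with a library left out.

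Nothing in the labels pairs the replicates across the states. Differences between replicates correlated at r = 0.043 between the states, across genes. Counting noise in genes with few counts lowers such a correlation, so it cannot exclude a pairing. With the replicate block, 2 members were higher and 3 lower, and 10471 and 9220 of all genes, so it changed no member's call. Replicates of a state differed by more than sampling noise (chi-square per degree of freedom 13.2 in naïve and 7.82 in primed cells). Depth limits LGALS9, LGALS12, LGALS4 and LGALS14, which had under 30 counts in every library.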
